A study of Drosophila melanogaster with 3 samples.

Results

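The genes examined here are 10 determination factors of the Drosophila eye-antennal disc: eyeless (ey), twin of eyeless (toy), sine oculis (so), eyes absent (eya), dachshund (dac), teashirt (tsh), tiptop (tio), distal antenna (dan), distal antenna-related (danr) and atonal (ato). They were chosen by name as members of this developmental network, by a rule that uses no peak value, although earlier results of these data were known, and all 10 were found among the 13945 protein-coding genes annotated on the 6 chromosome arms analysed. The data are ChIP-seq peaks of Lola-RI, which is 1 of the zinc finger isoforms of the BTB protein Lola, in 3 biological replicates that form 1 group. The larvae were whole animals of both sexes, pooled, at the wandering stage of the third instar, and each carried as a stable transgenic line Lola-RI with eGFP at its C terminus. The immunoprecipitation used an antibody to GFP per the description in the labels, whose antibody field names lola. There was no untagged, mutant or second-stage group, so no comparison between conditions could be made, and the values below are descriptions over 3 samples.

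The eye-antennal imaginal disc gives rise to the eye, the antenna and much of the head capsule of the adult fly. In the disc, the Pax6 proteins Ey and Toy act early in eye specification, and the homeodomain protein So, its phosphatase partner Eya and the Ski/Sno-related nuclear protein Dac follow them and feed back on them. The zinc finger proteins Tsh and Tio and the pipsqueak-domain proteins Dan and Danr modulate this network, and the bHLH protein Ato specifies the founder photoreceptor R8. Lola is made as many isoforms that share a BTB domain and differ in their C-terminal zinc fingers, and is known for roles in axon guidance and in neural and imaginal development. The disc is a small share of a whole larva, so a peak is an average over all tissues, and a peak found in few cells may not be called. The lists hold no expression values, so the material could not be checked against tissue markers.

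Peaks were read from 5 deposited lists, which are 1 per replicate, 1 from the pooled replicates and 1 of 9202 peaks kept after a threshold on the irreproducible discovery rate (IDR). The kept peaks were exactly those at the head of the pooled list by score. The other lists held 30000 peaks each, and replicate values below come from the lists shortened to their 9202 highest-scoring peaks unless the full lists are named. A rank is the place of a peak by the authors' score within 1 list, with rank 1 the highest. A promoter summit was at most 500 bp from any annotated TSS (transcription start site), and an extended gene is the gene with 10 kb on either side. The lists hold no read counts, so the depth is unknown. All 10 genes could be scored, and no filter on low values was applied. The full lists run down to entries with weak support by the deposited −log10 q, which is higher for stronger evidence. It was 0.496 for a pooled summit in so at rank 27593. For a replicate 3 peak at tio at rank 24752 it was 0.689. Entries low in these lists are therefore not established peaks.

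An IDR summit of Lola-RI lay at the promoter of 2 of them, tsh and dan, while 34.0% of all protein-coding genes had 1. When any 1 replicate was left out and both others had to hold the peak in their shortened lists, the count was 1, tsh. This rule can only lower a count, and the share of all protein-coding genes under it was not computed. The shortened replicate lists placed a summit at the promoter of 3, 3 and 2 members (2.67 ± 0.577, SD, n = 3 replicates), where they did so for 33.7%, 32.5% and 36.2% of protein-coding genes. In the full replicate lists, 4, 6 and 6 members had one, beside 49.9%, 47.7% and 51.2% of protein-coding genes. Over 10 genes, these counts do not set the members apart from all genes. The extended genes held 11 IDR summits in 5 members, toy, dac, tsh, dan and ato, whereas 76.3% of all protein-coding genes had at least 1 IDR summit in the extended gene. Among the 9403 protein-coding genes within the members' range of lengths, 1.22 to 23.5 kb, the share was 80.4%. The median was 0.5 IDR summits per extended member, beside a median of 2 over all protein-coding genes (quartiles 1 and 4) and a median of 2 over the genes in that range of lengths. The shortened replicate lists held 15, 11 and 16 summits in the extended members (14 ± 2.65, SD, n = 3), in 7 members each, beside 77.3%, 74.8% and 77.2% of protein-coding genes with a summit in the extended gene. The replicate lists thus put the number of members with a summit near the background, and the IDR list put it lower. These are counts over only 10 genes, and the difference was not tested. Without replicate 1, 7 of the 11 IDR summits were in the shortened lists of both others.

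**Figure D1:**
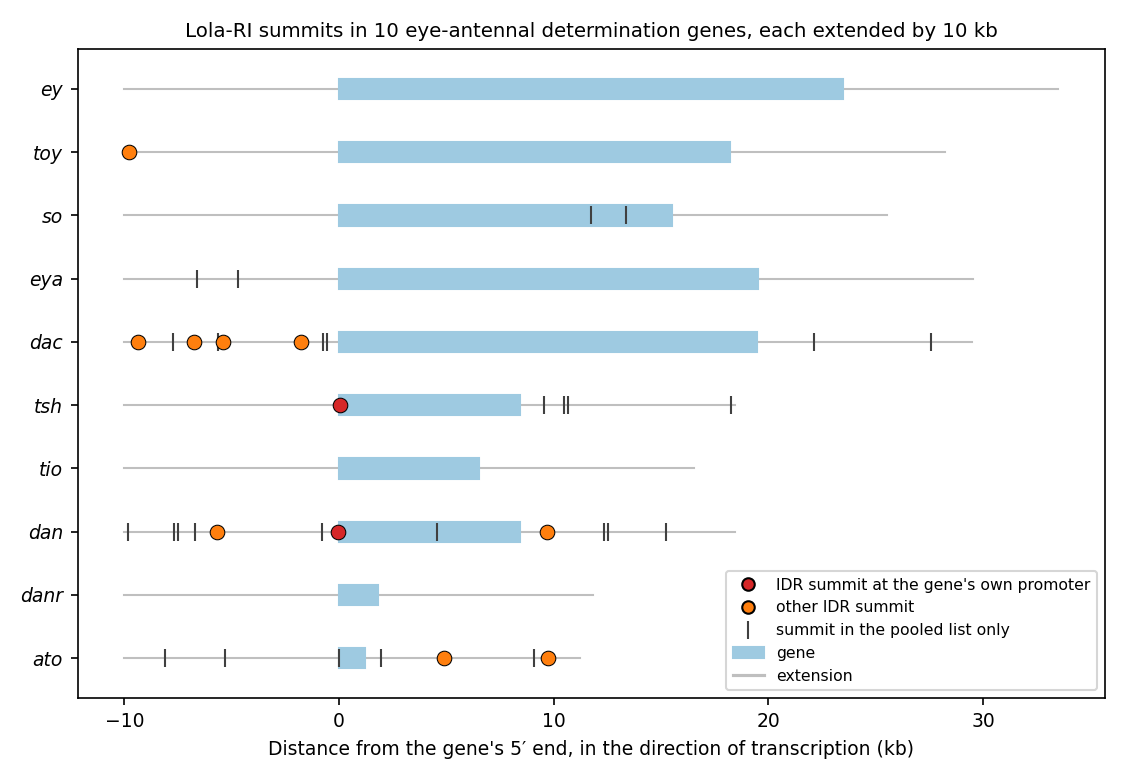
Positions of summits along each of the 10 genes, drawn in the direction of transcription; the x axis is the distance from the 5′ end of the gene in kb, blue boxes are the genes and grey lines the 10 kb extensions. Red points are IDR summits at the gene's own promoter (tsh and dan), orange points the other 9 IDR summits, and ticks the 28 summits of the pooled list alone; ey, tio and danr have no symbol.

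The only IDR summit within any of the 10 gene bodies was the one 31 bp downstream of the tsh TSS, so 1 of 10 members had an IDR summit inside the gene, beside 19.1% of protein-coding genes. No member had an IDR summit inside the gene and away from its promoters, while 10.7% of protein-coding genes did. Over 10 genes both counts lie near the background. The shortened replicate lists held 0, 0 and 2 such summits, and the pooled list held 3, of which 2 lay in so and 1 in dan. The remaining 10 IDR summits lay in the flanks, 7 upstream and 3 downstream.

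Most of the flanking summits were nearer to a TSS of another gene than to one of the member. Of the 11 IDR summits, 2 lay at a member's promoter, 4 at the promoter of another gene, 3 in an intron and 2 in intergenic DNA. The TSS nearest to the summit was the member's in 3 cases and another gene's in 8. This split was not computed over all extended genes, and a 10 kb extension can take in neighbours of any gene. Over all protein-coding genes, the mean was 2.74 IDR summits per extended gene and 0.421 inside the gene. The means over the members were 1.1 and 0.1. In all, 6 of 11 were at some promoter, or 54.5% (95% Wilson interval 28.0 to 78.7%), beside 55.5% of all 9202 IDR summits. The interval takes the 11 summits as independent, although they lay in only 5 members, with 4 of them at dac. The share at promoters was thus close to that of the whole list. Of these 6 promoters, 4 belonged to neighbours of the members, a split also not computed over all genes.

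The Pax6 genes on chromosome 4 came out sparsely. The gene ey (chromosome 4, 697689 to 721173 on dm6, plus strand, 23.5 kb) had no summit in the extended gene in the IDR list, the pooled list, replicate 1 or replicate 3. Replicate 2 alone had 1, at rank 4623, with its summit 44 bp upstream of an ey TSS. The nearest IDR summit lay 114640 bp downstream of ey, with the TSS of Sox102F, which encodes an HMG-box factor, nearest to it. For toy (chromosome 4, 989725 to 1007922, plus strand, 18.2 kb), 1 IDR summit lay 9770 bp upstream of the TSS, just inside the 10 kb limit. Its rank was 266 in the IDR list and 418, 128 and 349 in replicates 1, 2 and 3, the highest of all 11 summits in the IDR list and in every replicate. This intergenic peak was 1085 bp wide and was the fifth best of the 33 IDR peaks on chromosome 4. It lay 1466 bp from the nearest TSS, that of fuss, which encodes a Ski/Sno-related protein, and so was nearer to fuss than to toy. The interval of 269 kb between ey and toy held 10 protein-coding genes and 3 IDR summits, or 11.2 per Mb, beside 29 per Mb over chromosome 4. Here and below, the density of a chromosome or arm was taken over the span from its first to its last IDR summit.

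The sequence at the toy flank summit and the promoter sequence of ey are shown because one is the strongest peak among the members and the other the promoter at which 1 replicate alone had a peak. They are RefSeq sequence of the dm6 genome, 5′ to 3′ on the strand of the gene, with capitals marking matches to the motifs described further on. The toy window is centred on the summit at chr4:979905-980005, and that of ey ends 1 base before its most upstream TSS, at chr4:697588-697688.
toy flank: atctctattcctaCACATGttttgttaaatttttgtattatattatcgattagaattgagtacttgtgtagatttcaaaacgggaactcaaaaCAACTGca
ey promoter: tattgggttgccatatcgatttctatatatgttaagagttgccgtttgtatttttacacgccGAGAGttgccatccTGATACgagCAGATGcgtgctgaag
The toy window held 2 E-boxes (CANNTG, the core bound by bHLH proteins). The ey promoter held 1 GAGAG, 1 TGATAC and 1 E-box.

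The gene so, which encodes the homeodomain protein of the network that acts with Eya (chromosome arm 2R, 7419350 to 7434872, plus strand, 15.5 kb), had no IDR summit in the extended gene. Its promoter nevertheless carried a peak in each of the replicates. The summits lay 371 bp upstream of the TSS in replicate 1, 312 bp upstream in replicate 2 and 393 bp upstream in replicate 3, at ranks 5089, 6201 and 7906. All 3 ranks were within the shortened lists, yet the pooled list of 30000 peaks had no peak there. Such a case was rare in the files. Of the 6754, 7218 and 6994 peaks of the shortened lists of replicates 1, 2 and 3 that overlapped a peak of both other shortened lists, 14, 17 and 16 had no overlapping pooled peak, or 0.207%, 0.236% and 0.229%. The cause of the missing pooled peak was not tested. Within the body of so, the pooled list had 2 summits, at ranks 14791 and 27593. The better of them lay 203 bp upstream of lncRNA:CR44204, a non-coding gene inside so, and overlapped a peak of replicates 2 and 3 only, at ranks 14322 and 21086. A further site inside so was found by replicate 1 at rank 10581 and by replicate 3 at rank 7968, 10102 and 10158 bp downstream of the TSS, again with no pooled peak. The nearest IDR summit to so was 19.3 kb downstream of the gene, at rank 1751.

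For eya (arm 2L, 6527447 to 6546976, minus strand, 19.5 kb), which encodes the transcriptional coactivator and phosphatase that pairs with So, there was likewise no IDR summit in the extended gene. The pooled list had 2, both upstream. For both, the nearest TSS was that of lncRNA:CR44776, a non-coding gene. The better one, at rank 14369 and 4696 bp upstream of eya, lay 182 bp upstream of that TSS. It overlapped a peak of replicate 1 only, at rank 10447. The other, at rank 20491 and 6600 bp upstream, overlapped a peak in the full lists of all 3 replicates, at ranks 25895, 24609 and 18085. Replicate 1 alone had a further peak, at rank 9121, just past the 3′ end of eya. The nearest IDR summit lay 10666 bp upstream, at rank 5774 and just outside the 10 kb limit, at the promoter shared by COX5B and IFT52, which encode a subunit of the respiratory chain and a component of intraflagellar transport.

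The flank upstream of dac (arm 2L, 16466512 to 16485998, minus strand, 19.5 kb) held 4 IDR summits, more than any other member. The shortened lists of replicates 1, 2 and 3 held 5, 3 and 4. None of the 4 had the dac TSS as its nearest. The best lay 9369 bp upstream of dac in an intron of Tpr2, a co-chaperone gene, at rank 1477 in the IDR list and at ranks 960, 1658 and 2454 in replicates 1, 2 and 3. A second intronic summit, 6749 bp upstream, ranked 1851, and 1618, 1576 and 2773 in the replicates. The remaining pair lay at neighbours' promoters. The summit 133 bp upstream of a Tpr2 TSS ranked 3031, and 3090, 3716 and 2627 in the replicates. The summit 388 bp upstream of Nepl8, a gene of the neprilysin-like family, ranked 6394, and 6852, 12990 and 4423 in the replicates, so that replicate 2 had it only in its full list. The pooled summits nearest to dac itself were outside the IDR list, at 548 and 750 bp upstream of its TSS and ranks 11080 and 17143. Both overlapped the same replicate peaks, at ranks 8471, 10201 and 15186 in replicates 1, 2 and 3, of which only that of replicate 1 was in the shortened list. Inside dac, only the full list of replicate 1 had peaks, 3 in number and at ranks 20321, 28438 and 29012.

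The sequence at the strongest of these summits, chr2L:16495317-16495417, is shown on the strand of dac because it held TGATAC, the core of sites bound by So-type homeodomain proteins, which is written here on the opposite strand as GTATCA.
dac flank: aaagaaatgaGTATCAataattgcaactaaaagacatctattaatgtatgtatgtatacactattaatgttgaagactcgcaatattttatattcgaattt
The window had a GC content of 23.8%.

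The zinc finger gene tsh and its paralogue tio lie near the base of arm 2L and differed at their promoters. For tsh (21828593 to 21837011, plus strand, 8.42 kb), an IDR peak of 870 bp had its summit 31 bp downstream of the TSS. Its rank was 4112 among the IDR peaks, with 3456, 7611 and 3287 in replicates 1, 2 and 3, within the shortened list of each. It was the only IDR summit of the extended gene. The pooled list added 4 summits, all downstream of tsh, at ranks 15021 to 27873. For tio (22019208 to 22025734, plus strand, 6.53 kb), neither the IDR nor the pooled list had a summit in the extended gene. A peak inside tio, 5303 bp downstream of its nearest TSS in replicate 1 and 5218 bp in replicate 3, ranked 10887 and 6424, and replicate 2 had none. At the tio start, only the full list of replicate 3 had a peak, 30 bp downstream of a TSS at rank 24752. The 182 kb between tsh and tio held 7 protein-coding genes and 1 IDR summit, or 5.49 per Mb, beside 73.3 per Mb over arm 2L.

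The promoters of this pair are shown because 1 carried a reproducible peak and the other none. They are windows that end 1 base before the most upstream TSS, at chr2L:21828492-21828592 for tsh and chr2L:22019107-22019207 for tio, with GAGAG, read as CTCTC on the opposite strand, in capitals.
tsh promoter: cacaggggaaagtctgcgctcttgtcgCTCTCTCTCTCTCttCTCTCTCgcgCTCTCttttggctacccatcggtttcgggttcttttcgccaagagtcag
tio promoter: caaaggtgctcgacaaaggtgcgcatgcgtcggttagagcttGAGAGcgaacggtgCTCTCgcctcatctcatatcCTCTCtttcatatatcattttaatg
GAGAG is the core of sites of GAGA factor. On both strands, with overlapping matches counted, it started 8 times in the tsh promoter and 3 times in that of tio. At least 8 matches were found in 0.323% of the 13945 promoters of the same length and at least 3 in 2.18%.

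The pipsqueak-domain genes dan and danr on arm 3R also differed. For dan (25184383 to 25192806, plus strand, 8.42 kb), which lies within an intron of lobo, an IDR summit lay 36 bp upstream of the first TSS. It ranked 7589, and 4940, 9298 and 12643 in replicates 1, 2 and 3, so only replicate 1 had it within the shortened list, and replicate 2 missed that list narrowly. A second IDR summit lay 5669 bp upstream, at rank 2675 and at ranks 2489, 1948 and 4556 in the replicates. It was in the lobo intron, but the dan TSS was the nearest to it. The third lay at the lobo promoter, 284 bp upstream of that TSS and 1254 bp past the 3′ end of dan, at rank 1688 and at ranks 2373, 1455 and 1642 in the replicates. A further IDR summit in the lobo intron fell just outside the limit, at 10022 bp upstream and rank 4276. The pooled list added 9 summits, more than for any other member, of which 1 lay inside dan, at rank 16054. For danr (25138072 to 25139903, plus strand, 1.83 kb), neither the IDR nor the pooled list had a summit in the extended gene, and the nearest IDR summit lay 25.3 kb upstream. The full list of replicate 2 alone had a peak at danr, 119 bp upstream of its TSS at rank 13199. The 44.5 kb between the paralogues held no protein-coding gene that lies wholly within it, and 3 IDR summits, or 67.4 per Mb, beside 71.6 per Mb over the arm.

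The dan promoter, chr3R:25184282-25184382, and the window of its better upstream summit, chr3R:25178664-25178764, are shown as the 2 IDR summits within the extended gene for which the dan TSS was the nearest.
dan promoter: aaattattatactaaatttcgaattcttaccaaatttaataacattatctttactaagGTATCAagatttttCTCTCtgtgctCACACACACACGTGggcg
dan flank: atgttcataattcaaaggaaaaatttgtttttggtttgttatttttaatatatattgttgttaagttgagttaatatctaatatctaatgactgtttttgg
The promoter held TGATAC once, GAGAG once, a run of CACACA and an E-box, whereas the flank window held none of the 8 motifs searched.

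The proneural gene ato (arm 3R, 8278052 to 8279274, plus strand, 1.22 kb) had 2 IDR summits in the extended gene, both downstream. The nearer one lay in intergenic DNA 3644 bp past the gene, at rank 9141, close to the end of the IDR list. It ranked 7918, 8148 and 15620 in replicates 1, 2 and 3. Its nearest TSS was that of lncRNA:CR44318, at 4251 bp, beside 4866 bp to the ato TSS. The other lay 70 bp upstream of the Nazo TSS, at rank 6237 and at ranks 6235, 11132 and 4985. At ato itself, the pooled list had a summit 2 bp upstream of the TSS at rank 18240, far below the IDR list, with full-list ranks of 24394, 21139 and 17465 in the replicates. An entry at the ato promoter was therefore in the full lists of all 3 replicates, but in the lower part of each. The pooled summit had a −log10 q of 1.5, beside the ceiling of 4.37 shared by all IDR peaks. The window of the intergenic summit, chr3R:8282868-8282968, is shown as the IDR summit closest to ato, and it held none of the 8 motifs.
ato flank: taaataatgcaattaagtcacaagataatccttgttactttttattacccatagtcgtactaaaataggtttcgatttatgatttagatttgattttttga

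**Figure D2:**
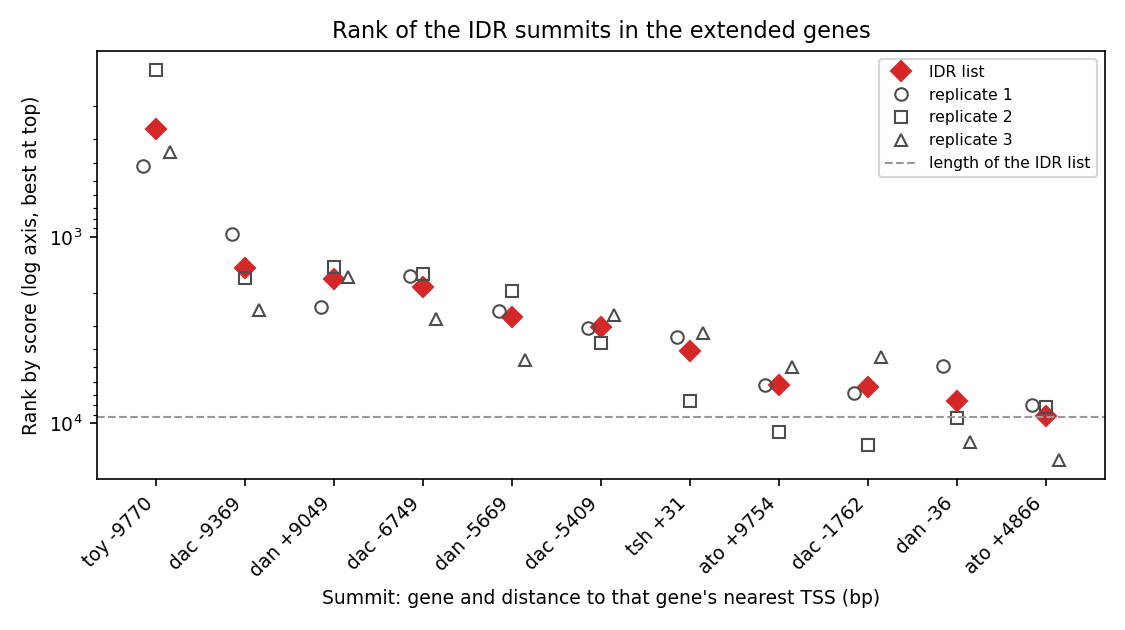
Rank by score of the 11 IDR summits in the extended genes, on a log axis with the best rank at the top; diamonds are the IDR list, open symbols the 3 replicates, and the dashed line the length of the IDR list, 9202. The x axis names the gene and the distance from its nearest TSS in bp; the toy flank summit is highest in all lists, and only summits at the right have a replicate below the line.

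The 11 summits were found in the full lists of all 3 replicates, and 7 of them, or 63.6%, were in all 3 shortened lists. Over all IDR peaks, 96.2% and 74.7% were. The median rank of the 11 was 3031, 7 ranked above the midpoint of the IDR list, and 1, that of toy, was among its best 10%. The 4 summits that a shortened list missed were those at the promoters of dan, Nepl8 and Nazo and the intergenic one near ato.

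Peaks below the IDR threshold extended the picture for some members and not for others. The pooled list held 39 summits in the extended genes of 7 members, 28 of them outside the IDR list, while 84.4% of protein-coding genes had a pooled summit in the extended gene. At promoters the pooled list called 3 members, tsh, dan and ato, beside 48.1% of protein-coding genes. The median was 2 pooled summits per extended member and 6 over all protein-coding genes. Of the 28 summits, 15 overlapped a peak in the full lists of all 3 replicates, and for 10 the member's TSS was the nearest. The genes ey, tio and danr had none, and 15.6% of protein-coding genes had none either. In the full replicate lists the members held 48, 48 and 45 summits (47 ± 1.73, SD, n = 3).

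**Figure D3:**
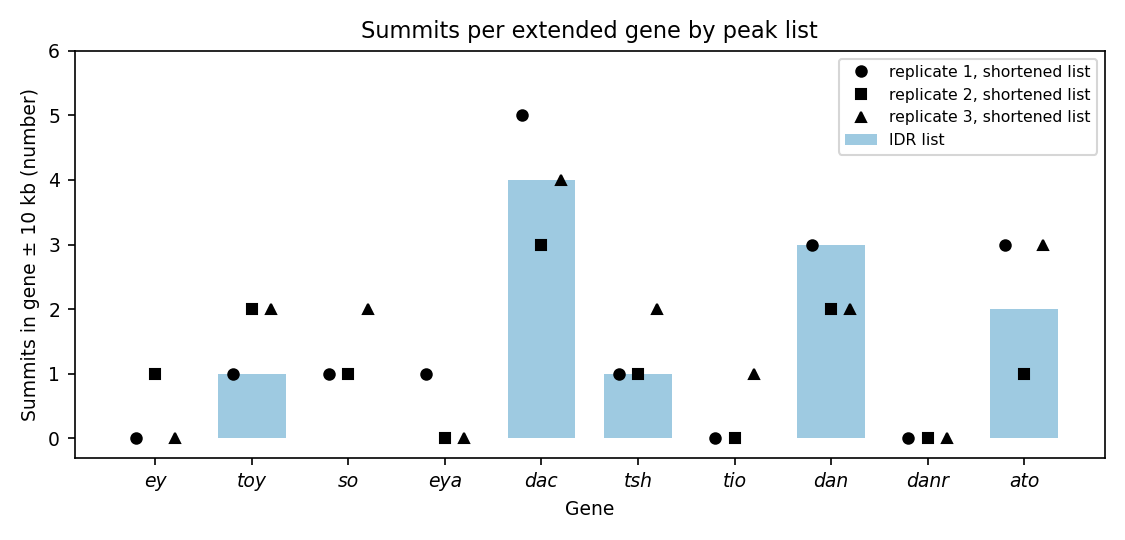
Number of summits in each gene extended by 10 kb; bars are the IDR list and symbols the 3 replicate lists shortened to 9202 peaks. The count for dac was highest, with 4 IDR summits and 5, 3 and 4 in the replicates, and danr was at 0 in every list shown.

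The regions around the genes fell into low and high densities of Lola-RI summits. Within 100 kb on either side of the gene, ey, toy, tsh and tio had between 0 and 18.3 IDR summits per Mb, below the density of their own arm. The other 6 members had between 79.3 and 114 per Mb, above that of their arms, which ranged from 71.6 to 74.8. The windows of dan and danr, 44.5 kb apart, overlap, as do those of tsh and tio, 182 kb apart. The members of each of these pairs are therefore not separate regions. Around ey the count was 0, around tio 1, around tsh 3 and around toy 4, while it ranged from 16 around danr to 25 around dac. Thus so, eya and danr lacked IDR summits within 10 kb although the wider region around each was dense in them. The peak at the tsh promoter was 1 of only 3 in its region.

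**Figure D4:**
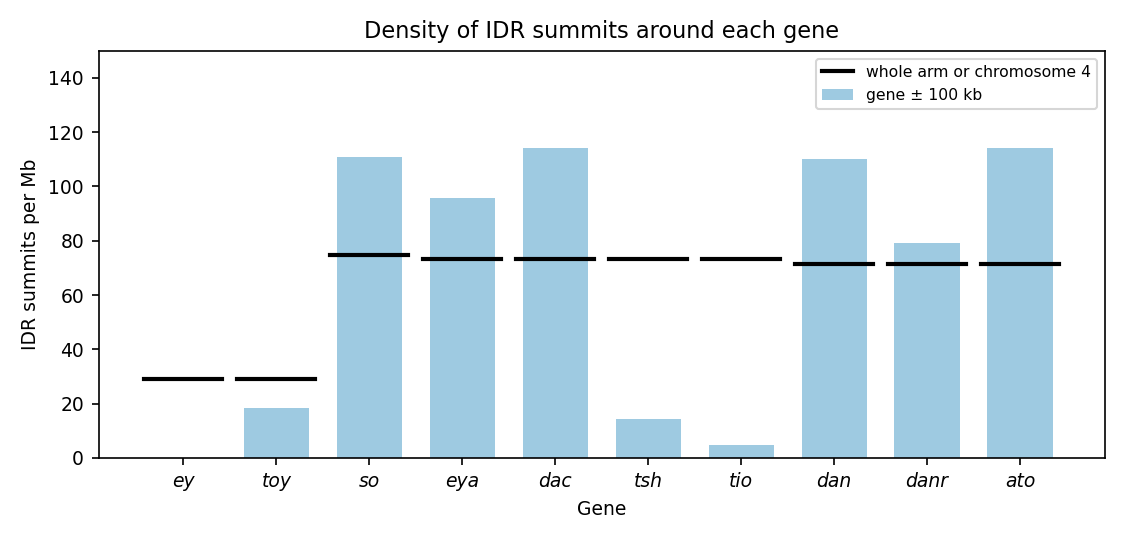
IDR summits per Mb in each gene with 100 kb on either side (bars), with the density of the arm or of chromosome 4 as a black line. The line is the density over the span from the first to the last IDR summit. The bars of ey, toy, tsh and tio lie below their lines, and those of the other 6 genes above theirs.

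Sequence at the summits was compared in windows reaching 50 bp to either side of each of the 11 IDR summits, on both strands, beside all 9202 IDR windows. The E-box CANNTG was in 6 windows, or 54.5%, against 36.9% of all IDR windows, and CAGCTG, one form of it, was in none against 5.61%. TGATAC was in 2, or 18.2%, against 2.56%, and these were the dac flank and dan promoter windows. The homeodomain core TAATTA was in 2, or 18.2%, against 7.53%. GAGAG was in 1, that of the dan promoter, or 9.09%, against 16.5%, and CACACA in 1 against 9.1%. TATCGATA, the core of the DNA replication-related element, and CAGGTAG, bound by Zelda, were in none, against 1.52% and 0.402%. With 11 windows each motif rests on few matches, and no test was made. The median GC content of the windows was 31.7%, beside 38.6% over all IDR windows.

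In promoter windows of the same length that end 1 base before the most upstream TSS, GAGAG was present in 6 of the 10 members, ey, so, tsh, tio, dan and ato, and in 13.3% of all 13945 promoters. TGATAC was present in ey and dan, and in 2.6% of all promoters. CANNTG was present in ey, toy and dan, and in 39.8% of all promoters. CACACA was in dac and dan and in 6.82% of all, CAGGTAG in ato and in 0.631% of all, and TATCGATA, CAGCTG and TAATTA in no member, and in 6.21%, 7.64% and 5.67% of all. Of the 6 members with GAGAG, tsh and dan had an IDR summit at the promoter, and ey, so, tio and ato had none. The members without GAGAG, toy, eya, dac and danr, had none either. The share of all promoters with GAGAG that had an IDR summit was not computed. Genes differ in how many TSSs they have, and only the first was scanned.

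Genes that act with the members in the disc were read from further lists. Of 54 other eye and antenna genes, 9 had an IDR summit at a promoter, or 16.7%, beside the 34.0% of all protein-coding genes. The shortened replicate lists gave 8, 7 and 10. In the extended gene, 38 of the 54 had an IDR summit, or 70.4%, beside 76.3%. Among 8 further retinal determination genes, only nmo, which encodes a proline-directed kinase, was called, at rank 5929 and 81 bp downstream of its TSS. Among 12 furrow and eye patterning genes, 4 were called: emc, an inhibitor of bHLH proteins, at rank 4142, hry (hairy), a bHLH repressor, at rank 4817, and the secreted signals dpp and wg at ranks 7796 and 8188. The dpp peak ranked 10367 in replicate 2 and the wg peak 9821 in replicate 1, each outside the shortened list. Among 20 eye cell fate genes, 3 were called. The neuronal RNA-binding protein gene elav ranked 846, the homeobox gene ro 959 and the receptor kinase gene sev 8254, and for ro the nearest TSS was that of the neighbour T48. The sev peak ranked 12011 in replicate 2, outside its shortened list. Among 14 antennal identity genes, Dll, the homeobox gene of distal appendages, was the only one called, at rank 3996 and 112 bp upstream of its TSS.

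Relatives of the members and of Lola itself were read in the same way, beside the 34.0% of all protein-coding genes with an IDR summit at a promoter. Of 11 further genes of the sine oculis, Pax and Dach families, Snoo alone, the Ski/Sno gene, had a promoter summit, at rank 992 in the IDR list and at ranks 1144, 1329 and 818 in the replicates. Of 9 pipsqueak-domain and lola-related genes, 4 were called, or 44.4%. The shortened replicate lists gave 3, 3 and 4, where 33.7%, 32.5% and 36.2% of protein-coding genes had such a summit. The genes of that list had a median length of 59.4 kb, against 10.2 kb for the 11 genes before. Those called had 9 (br), 5 (psq), 4 (ttk) and 2 (rib) TSSs, each of which could be scored. Those not called had 4 (lola), 3 (lov), 2 (Eip93F), 1 (bab1) and 1 (bab2). Whether length or the number of TSSs bears on the share was not tested. The called genes encode the BTB proteins Ttk, Psq, Br and Rib, with best ranks of 741, 3008, 3318 and 4603. The rib peak overlapped a peak of replicate 3 only, at rank 3330. Over the 68 listed genes, each counted once, 14 were called, or 20.6% (19.1 ± 2.94% over the shortened replicate lists, SD, n = 3). These lists are small, and the differences between their shares were not tested.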

How the data were processed

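Lola-RI-eGFP ChIP-seq was measured in 3 biological replicates of whole larvae, and peaks were called by the authors per replicate and on the pooled replicates, each against the same control file, per the deposited text descriptions. Chromatin was sonicated to 200 to 800 bp, per the labels. Coordinates are dm6, 1-based. The sources used here do not name the aligner, the peak caller or the IDR threshold. Peak score is a value the authors deposited, on an unstated scale, and was used only for ranks within a list. The −log10 q value in the deposited lists reached a ceiling, 4.37 in the pooled list, shared by all 9202 IDR peaks. It was not used to rank or filter peaks. The deposited peak lists used here carry no read counts, so depth is unknown, and the Wilson interval covers counting error only. No peak was identical between replicate lists.

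Summits were placed on Ensembl release 115 gene models with Python 3.11.15, pandas 2.3.3, numpy 2.4.6, scipy 1.17.1 and matplotlib 3.10.9. An IDR or pooled peak was found in a replicate when at least 1 bp overlapped, and took the rank of the best overlapping peak. Motifs were searched in the RefSeq dm6 genome. Counting was tested on simulated peaks. With 1 group no test was made. A summit within 500 bp of several TSSs counted for each gene. The members and gene lists were chosen with earlier results of these data known. All members are named, and for each the best IDR promoter summit and the best away from promoters, or the best pooled summit where it had no IDR summit. From each gene list up to 5 genes with a promoter summit are named by rank, with neighbours whose TSS is nearer. Further replicate peaks at so, ey, eya, tio and danr, and other summits, were named after their values were seen. The symbol spa had no match and h was matched as hry. Alternatives changed the extension, the promoter width, the list, the overlap rule and the replicates used. Protein sequences were not analysed here.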

Additional observations from a re-analysis of the deposited data

How the results depend on the processing

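The 11 summits fell to 1 with no extension and to 5 with 5 kb, and rose to 33 with 25 kb and to 39 in the pooled list. They numbered 7 above the midpoint rank of the IDR list, 7 among peaks found in every shortened replicate list, 7 to 9 when 1 replicate was left out and both others had to hold the peak, and 3 where the nearest TSS had to be the member's, an alternative chosen after seeing the data. The 5 members with a summit became 1 with no extension, beside 19.1% of protein-coding genes, and 8 with 25 kb. The 2 members with a promoter summit became 1 above the midpoint rank, 1 among peaks found in every shortened list and 1 without each replicate in turn (1 to 1), tsh in each case. The 54.5% of summits at promoters became 100% with no extension, 36.4% with promoters of 250 bp, 42.9% above the midpoint rank, 33.3% in the pooled list, 42.9% among peaks found in every shortened list, and 37.5 to 55.6% with 1 replicate left out. The 63.6% found in all 3 shortened lists became 100% in the full lists and 63.6 to 81.8% with 1 replicate left out. The 9 of 54 other eye and antenna genes with a promoter summit became 4 above the midpoint rank and 22 in the pooled list. In the pooled list, 48.1% of all protein-coding genes had a promoter summit. For the other changed settings of this section, no share over all protein-coding genes was computed. The settings admit different amounts of sequence and different numbers of peaks, and the cause of each move was not tested. The depth is unknown, so an uncalled site is not shown to be unbound.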
